A study of Mus musculus with 4 samples.

Results

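Circular RNAs (circRNAs) made from genes of the presynaptic active zone were examined in mouse brain after arterial occlusion. A circRNA is a closed transcript in which the end of a downstream exon (the splice donor) is joined back to the start of an upstream exon (the splice acceptor), and the read across that back-splice junction is what is counted. The members were all circRNAs of the deposited count table with 1 or both ends on exon boundaries of Rims1, Rims2, Erc1, Erc2, Pclo, Unc13b, Unc13c, Cadps or Cadps2, by GENCODE M21 on GRCm38. This gave 251 of 23980 circRNAs in 9 of 5292 host genes, 205 of them with both ends and 46 with 1 end on a boundary. Within these genes a circle entered by the position of its ends alone, while the genes were picked with earlier results of these data known.

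The active zone is the patch of the presynaptic membrane where vesicles dock, are primed and fuse when calcium enters. Rims1 and Rims2 encode RIM scaffolds, which hold calcium channels and priming factors at the release site. Erc1 and Erc2 encode ELKS proteins that bind RIM, and Pclo encodes piccolo, a very large scaffold. Unc13b and Unc13c encode vesicle priming proteins, and Cadps and Cadps2 encode proteins that promote the exocytosis of dense-core vesicles. In cortex these are neuronal synapse genes, and Rims2 is known as a host of an abundant brain circRNA.

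The tissue fell into 4 groups with 1 library each, so no value has a replicate error and every test compares 2 libraries, not 2 conditions. The first 3 came from mice with permanent middle cerebral artery occlusion (MCAO) by a filament, taken after 3 h, and each holds the pooled RNA of 6 mice. The infarct core was taken at 2 places, near the frontal lobe, here core frontal, and near the occipital lobe, here core occipital. The penumbra is the threatened cortex beside the core. The fourth is cortex of sham-operated mice, at the places that match core and penumbra (sham). The sources used here do not give strain, age or sex, or the number and sampling time of the sham mice. All 4 libraries shared perfusion with ice-cold PBS, Trizol extraction of total RNA and removal of ribosomal RNA.

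Core frontal held 121393 circRNA counts, core occipital 83090, penumbra 96349 and sham 106558. Beside values, the 2 cores are called frontal and occipital. A level is given in CPM, counts per 1000000 circRNA counts of that library, with a 95% exact Poisson interval, and a ratio with a 95% exact conditional interval. A limit of 3 counts equals 24.7 frontal, 36.1 occipital, 31.1 penumbra and 28.2 sham CPM. Marker genes could be read through their circRNAs only. Circles of the 9 neuronal markers summed to 2414 frontal, 2732 occipital, 2522 penumbra and 2299 sham CPM, with Gad1, Gad2 and Slc17a7 at 0. Astrocyte markers summed to 214 frontal, 229 occipital, 249 penumbra and 122 sham CPM with 5 of 8 at 0, among them Gfap and Aqp4. All 8 microglial markers were at 0 in every library, 7 of 8 oligodendrocyte and 7 of 8 endothelial markers were at 0, and these lists never passed 36.1 CPM. Striatal markers summed to 354 frontal, 301 occipital, 176 penumbra and 206 sham CPM, with Drd1 and Drd2 at 0. Pde10a gave 288 frontal, 253 occipital, 176 penumbra and 178 sham CPM of this. Rgs9 had 6 frontal, 1 occipital, 0 penumbra and 0 sham counts, and Rarb 2 frontal, 3 occipital, 0 penumbra and 3 sham counts. The part of all these cell and region markers in the results below was not tested.

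The junctions below show how the exons of each gene are closed into a circle. Each line gives the most abundant fully coding circle of a gene with both ends annotated, as the last 20 bases of its last exon in lower case and the first 20 bases of its first exon in capitals, 5′ to 3′ on the gene's strand, read from the GENCODE M21 transcripts.
Rims1 exon 32 to exon 30 (chr1:22346293-22379540, minus strand): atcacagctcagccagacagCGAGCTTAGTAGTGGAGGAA
Rims2 exon 22 to exon 20 (chr15:39566943-39616510, plus strand): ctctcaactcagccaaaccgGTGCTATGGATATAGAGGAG
Erc1 exon 17 to exon 15 (chr6:119694571-119722308, minus strand): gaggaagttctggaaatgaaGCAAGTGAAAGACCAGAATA
Erc2 exon 16 to exon 15 (chr14:28080132-28141381, plus strand): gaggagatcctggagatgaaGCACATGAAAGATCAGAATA
Pclo exon 3 to exon 3 (chr5:14539410-14540801, plus strand): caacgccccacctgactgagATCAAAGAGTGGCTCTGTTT
Unc13b exon 7 to exon 2 (chr4:43087903-43115160, plus strand): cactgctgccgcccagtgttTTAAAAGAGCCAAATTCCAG
Unc13c exon 10 to exon 5 (chr9:73734404-73758677, minus strand): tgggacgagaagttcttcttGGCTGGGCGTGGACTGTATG
Cadps exon 28 to exon 26 (chr14:12418005-12440915, minus strand): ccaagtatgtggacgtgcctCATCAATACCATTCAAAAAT
Cadps2 exon 18 to exon 15 (chr6:23381057-23390486, minus strand): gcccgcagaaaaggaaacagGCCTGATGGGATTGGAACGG

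Circles of active zone genes made up a near-constant slice of the circRNA count. They held 2.45% (frontal), 2.74% (occipital), 2.54% (penumbra) and 2.46% (sham) of it, or 24458 frontal, 27404 occipital, 25418 penumbra and 24616 sham CPM. Core occipital was the highest library, and its interval (26290 to 28553 CPM) lay above that of sham (23683 to 25576 CPM). A change in the share of nerve cells and a change in circRNA per cell cannot be told apart in such tissue libraries. The number of member circles detected was 187 frontal, 190 occipital, 182 penumbra and 177 sham. With each library thinned to 83090 counts the means were 170 frontal, 190 occipital, 175 penumbra and 164 sham. Of the 251 circles 110 were seen in all 4 libraries, and 108 (43.0%) reached a summed count of 10, compared with 28.1% of all circles.

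The RIM genes carried most of the count. Rims1 (chr1:22286251-22805994) gave 51 circles at 10388 frontal, 11879 occipital, 11220 penumbra and 10558 sham CPM. Its circRNA count of 4454 was the 2nd highest of the 5292 hosts. Rims2 (chr15:39198261-39684372) gave 68 circles, the 3rd largest number of any host, at 6310 frontal, 6716 occipital, 6860 penumbra and 6757 sham CPM. Erc2 (chr14:27622428-28478537) followed with 36 circles at 3962 frontal, 4621 occipital, 3871 penumbra and 3388 sham CPM. Its paralog Erc1 (chr6:119570796-119848167) had 19 circles at only 395 frontal, 301 occipital, 218 penumbra and 375 sham CPM.

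Among the dense-core vesicle genes, Cadps (chr14:12372563-12823079) gave 29 circles at 1845 frontal, 1890 occipital, 2014 penumbra and 2187 sham CPM. Cadps2 (chr6:23262773-23839421) gave 25 circles at 980 frontal, 1420 occipital, 789 penumbra and 976 sham CPM. The priming and scaffold genes were low. Pclo (chr5:14514918-14863459) had 7 circles at 165 frontal, 253 occipital, 239 penumbra and 178 sham CPM, and Unc13b (chr4:43058953-43264871) 5 circles at 272 frontal, 144 occipital, 166 penumbra and 150 sham CPM. Unc13c (chr9:73479422-73968966) had 11 circles, none with 10 counts over the 4 libraries, at 140 frontal, 181 occipital, 41.5 penumbra and 46.9 sham CPM.

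In each library the 5 highest genes kept the order Rims1, Rims2, Erc2, Cadps, Cadps2, and their ranges over the 4 libraries did not overlap. The ranges of Erc1 (218 to 395 CPM), Pclo (165 to 253 CPM), Unc13b (144 to 272 CPM) and Unc13c (41.5 to 181 CPM) overlapped from one gene to the next. Per kilobase of spliced circle, over circles with a known exon sequence, the mean level over the libraries was 12153 CPM per kb for Rims1, 10716 for Rims2, 9046 for Erc2, 5585 for Cadps, 2630 for Cadps2 and 481 for Erc1. Circles with a known exon sequence held only 54.6% of the Rims1 count, compared with 86.2% for Erc2 and 100% for Cadps2. On the scale per kilobase Unc13b (384 CPM per kb) and Unc13c (136 CPM per kb) stood above Pclo (115 CPM per kb), whose exons are long.

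**Figure D1:**
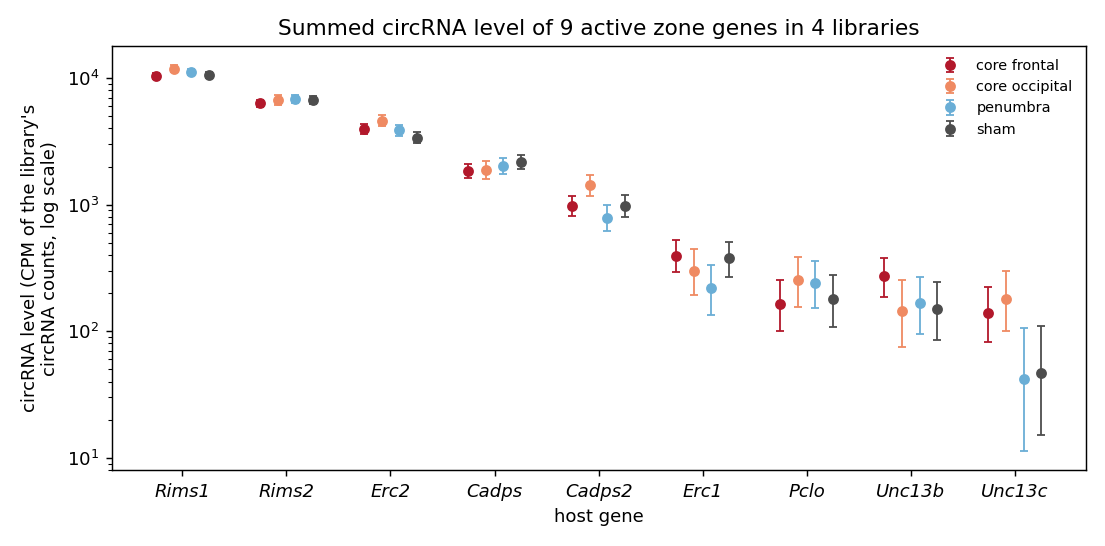
Summed circRNA level of each host gene (CPM of the library's circRNA counts, log scale) in the 4 libraries, with core frontal, core occipital, penumbra and sham from left to right within a gene. Points are single libraries and bars the 95% exact Poisson intervals, which cover counting error only. Rims1 sits between 10388 and 11879 CPM in every library, and Unc13c is lowest in penumbra and sham.

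Most of the Rims1 count came from 1 splice donor. The most abundant member circle joined the donor of Rims1 exon 32 to an acceptor that GENCODE M21 does not list (chr1:22346293-22393948), with 571 frontal, 450 occipital, 445 penumbra and 503 sham counts. At 4704 frontal, 5416 occipital, 4619 penumbra and 4720 sham CPM it was the 6th most abundant circle of the table and 44.2% of the Rims1 count. The acceptor lies in intron 29, 3503 bases after exon 29 and 14408 bases before exon 30. The same donor closed the circle of exons 30 to 32 with 255 frontal, 175 occipital, 203 penumbra and 229 sham counts. In all, 8 of the 51 Rims1 circles used this donor, for 70.3% (frontal), 68.8% (occipital), 64.9% (penumbra) and 72.1% (sham) of the gene's count.

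Rims2 was built around a donor at the paralogous exon. The donor of exon 22 closed 16 of its 68 circles, with 67.0% (frontal), 69.7% (occipital), 65.5% (penumbra) and 76.3% (sham) of the gene's count. Sham had the largest share from this donor. Exons 20 to 22 gave its most abundant circle, with 252 frontal, 222 occipital, 246 penumbra and 302 sham counts, and exons 21 to 22 the next (chr15:39585590-39616510), with 149 frontal, 93 occipital, 117 penumbra and 165 sham counts. A pair of unlisted acceptors 3 bases apart lies in intron 19, 11878 bases before exon 20. Joined to exon 22, the first of them (chr15:39555065-39616510) had 35 frontal, 21 occipital, 19 penumbra and 29 sham counts and the second (chr15:39555068-39616510) 20 frontal, 5 occipital, 18 penumbra and 13 sham counts. Rims1 intron 29 and Rims2 intron 19 are the introns before the equivalent exons 30 and 20, so in both genes junctions were placed at an unlisted acceptor there. The bases at ends inside introns were not read, because no genome sequence was used.

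The circles of Rims1 exons 30 to 32 and Rims2 exons 20 to 22 were seen by their junctions only. With all annotated exons between their ends, each circle would be 516 bases long. Aligned end to end they shared 349 of 502 aligned bases (69.5%), and each had 14 bases in gaps. By exon the identity was 63.0% for the pair 30 and 20 (113 and 101 bases), 66.5% for the pair 31 and 21 (167 and 173 bases) and 74.5% for the pair 32 and 22 (236 and 242 bases). The last 2 exons of each circle are printed because most of the count of both genes ends at the donors of exons 32 and 22, with bases that differ from the paralog or stand in a gap in capitals.
Rims1 exon 31 (chr1:22373344-22373510, minus strand): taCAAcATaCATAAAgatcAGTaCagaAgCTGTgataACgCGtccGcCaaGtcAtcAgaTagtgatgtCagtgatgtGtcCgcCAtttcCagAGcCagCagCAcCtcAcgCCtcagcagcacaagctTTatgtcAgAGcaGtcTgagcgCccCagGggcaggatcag
Rims2 exon 21 (chr15:39585590-39585762, plus strand): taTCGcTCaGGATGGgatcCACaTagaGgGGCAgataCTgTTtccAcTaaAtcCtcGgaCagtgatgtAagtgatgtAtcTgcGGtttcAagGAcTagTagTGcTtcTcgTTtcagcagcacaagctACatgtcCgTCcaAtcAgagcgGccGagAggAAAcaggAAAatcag
Rims1 exon 32 (chr1:22346293-22346528, minus strand): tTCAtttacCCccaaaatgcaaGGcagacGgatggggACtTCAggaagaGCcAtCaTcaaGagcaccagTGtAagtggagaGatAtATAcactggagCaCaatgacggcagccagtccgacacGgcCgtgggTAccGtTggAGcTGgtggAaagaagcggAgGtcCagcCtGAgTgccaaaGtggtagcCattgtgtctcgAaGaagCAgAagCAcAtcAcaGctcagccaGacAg
Rims2 exon 22 (chr15:39616269-39616510, plus strand): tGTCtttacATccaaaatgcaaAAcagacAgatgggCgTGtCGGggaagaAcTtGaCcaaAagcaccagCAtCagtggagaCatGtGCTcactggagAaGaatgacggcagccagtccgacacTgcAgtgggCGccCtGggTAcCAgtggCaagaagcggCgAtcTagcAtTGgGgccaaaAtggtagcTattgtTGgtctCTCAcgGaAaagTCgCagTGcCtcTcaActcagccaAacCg

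Within this shared stretch the paralogs closed different shorter circles. Exons 30 to 31 of Rims1 (chr1:22373344-22379540; 280 bases) had 115 frontal, 91 occipital, 110 penumbra and 102 sham counts, against 2 frontal, 0 occipital, 0 penumbra and 6 sham counts for the equivalent exons 20 to 21 of Rims2 (274 bases). Exons 31 to 32 of Rims1 (403 bases) had 1 frontal, 1 occipital, 3 penumbra and 0 sham counts, against 149 frontal, 93 occipital, 117 penumbra and 165 sham counts for exons 21 to 22 of Rims2 (415 bases). The paralogs lay apart in every library, in opposite directions. Over the 4 libraries the sums were 418 against 8 and 5 against 524. Of 23 Rims1 circles whose ends could be placed on Rims2 exon borders through the aligned coding sequences, 6 had a Rims2 counterpart. Those 6 held 29.7% of the Rims1 count and 58.5% of the Rims2 count.

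**Figure D2:**
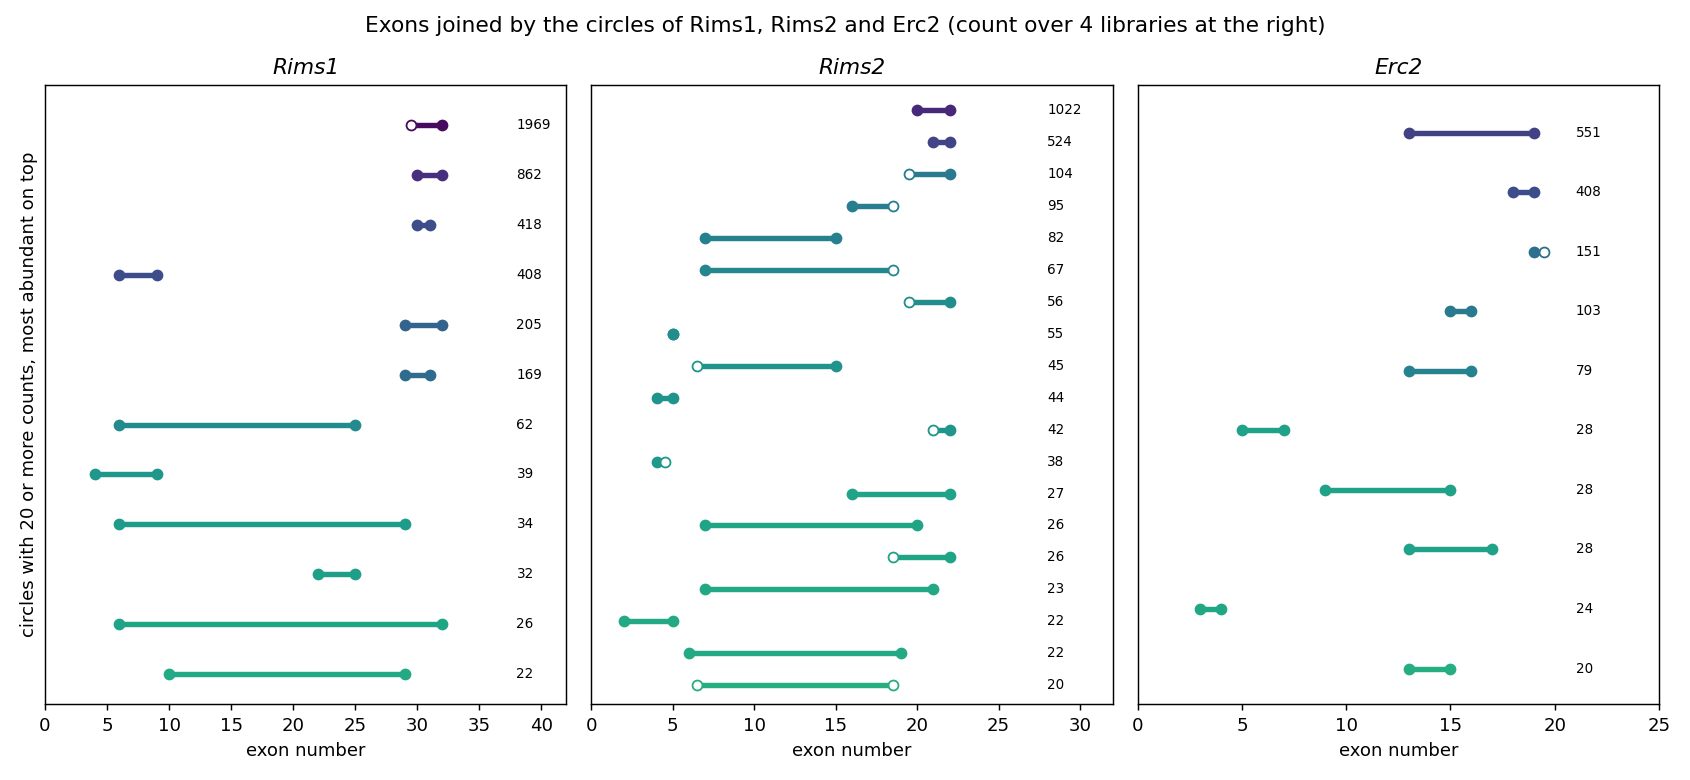
Exons joined by each circle with 20 or more counts over the 4 libraries, by exon number of the reference transcript of Rims1, Rims2 and Erc2, most abundant on top, with the count at the right. Filled ends lie on a border of that transcript, and open ends are inside an intron or exon of it. Most of the count ends at exon 32 of Rims1, exon 22 of Rims2 and exon 19 of Erc2.

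Inside Rims2 exon 21 a pair of acceptors 3 bases apart, 116 and 119 bases into the 173-base exon, was joined to exon 22 with 42 and 17 counts over the 4 libraries. Both follow an AG, the bases that end an intron before an acceptor. They stand in a run of 15 bases of the exon printed above, tcagcagcacaagct, that Rims1 exon 31 also holds, and 0 Rims1 circles had an acceptor at the matching positions. In Rims1 exon 4 an acceptor 3 bases inside the annotated one had 14 counts, compared with 39 for the circle of exons 4 to 9 from the annotated acceptor.

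Erc2, which encodes the brain-enriched ELKS paralog, showed the same layout. Its donor at exon 19 closed 5 of 36 circles, with 59.9% (frontal), 62.0% (occipital), 65.1% (penumbra) and 60.4% (sham) of the gene's count. Exons 13 to 19 (chr14:28040343-28317314; 852 bases) had 159 frontal, 137 occipital, 129 penumbra and 126 sham counts, and exons 18 to 19 (chr14:28302876-28317314; 201 bases) 125 frontal, 96 occipital, 109 penumbra and 78 sham counts. A donor not listed in the annotation, 66729 bases after exon 19, ended 4 further circles with 53 frontal, 38 occipital, 45 penumbra and 39 sham counts. Shared donors of this weight are common: over the 181 hosts with 400 or more counts the most used donor held a median of 61.7% of the count and the most used acceptor 72.9%.

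Erc1 and Erc2 closed circles at an equivalent junction. Erc1 exons 15 to 17 had 11 frontal, 1 occipital, 4 penumbra and 10 sham counts and the equivalent Erc2 exons 15 to 16 had 26 frontal, 31 occipital, 22 penumbra and 24 sham counts, and the 2 junctions printed above differ at 7 of 40 bases. Of 17 Erc1 circles with both ends on borders of the numbered Erc1 transcript, 6 could be placed on Erc2 exon borders. Of these, 3 had an Erc2 counterpart, with 38.8% of the Erc1 count and 7.82% of the Erc2 count. The Erc2 exon 19 donor, with 61.7% of the Erc2 count, could not be placed on Erc1, so its circles could not be matched.

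Pclo made its leading circle from its 3rd exon alone (1392 bases), with 8 frontal, 15 occipital, 12 penumbra and 10 sham counts. Its second circle, exons 7 to 9 (chr5:14712417-14723324), had 9 frontal, 3 occipital, 4 penumbra and 1 sham counts. Unc13b began 90.9% of its count at exon 2. Its circle of exons 2 to 7 had 21 frontal, 6 occipital, 11 penumbra and 9 sham counts, and exons 2 to 6 (chr4:43087903-43101874) had 9 frontal, 5 occipital, 2 penumbra and 5 sham counts. Unc13c was led by exons 5 to 10 with 5 frontal, 0 occipital, 2 penumbra and 2 sham counts and by its 3213-base exon 2 (chr9:73930597-73933809) with 2 frontal, 3 occipital, 1 penumbra and 0 sham counts, all at or near the limit of 3 counts.

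Cadps and Cadps2 spread their counts more evenly. The most used donor of Cadps, exon 28, held 41.1% of its count and that of Cadps2, exon 18, held 23.5%. Cadps exons 26 to 28 (192 bases) had 29 frontal, 28 occipital, 42 penumbra and 52 sham counts, and exons 23 to 28 (chr14:12418005-12457829) had 42 frontal, 21 occipital, 25 penumbra and 40 sham counts. In Cadps2 exons 15 to 18 (311 bases) had 23 frontal, 26 occipital, 23 penumbra and 26 sham counts and exons 19 to 21 (chr6:23344207-23355927) 22 frontal, 14 occipital, 7 penumbra and 12 sham counts. All 25 circles of each gene with both ends on the borders of its numbered transcript could be placed on the other, and 5 had a counterpart. The largest of these, Cadps exons 26 to 29, had 120 counts against 5 for the same exons of Cadps2.

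Member circles had longer introns around them than circles in general. With all annotated exons between the ends, their median was 5 exons and 726 spliced bases, compared with 4 exons and 541 bases over all circles. Weighted by count the mean spliced length was 641 bases for members, compared with 702 for all circles. The intron before them had a median of 20255 bases and the one after them 21833, compared with 8422 and 6729 over all circles. Only 10.5% began at exon 2, compared with 24.2% of all circles, and 10 of the 200 with a known exon sequence had a single exon. For these shares the exons were counted along a transcript chosen for each circle. It can differ from the transcript that numbers the exons elsewhere in the text. Circles with 1 unlisted end held 25.2% of the member count, or 7.56% without the leading Rims1 circle, compared with 6.95% of all counts. These are descriptions, and circles of 1 gene share its exons and introns.

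Most active zone genes did not pass the test between any pair of libraries. Erc2 circRNA was higher in core occipital, at 4621 CPM (384 counts; interval 4171 to 5108), against 3388 CPM in sham (361 counts; interval 3047 to 3756). The ratio was 1.36 (1.18 to 1.58; Fisher's exact test with Benjamini-Hochberg adjustment over all hosts, adjusted p = 0.00441), and the intervals of the 2 libraries did not overlap. This was 1 of 9 member genes past an adjusted p of 0.05, against a background of 1.83% of the 2398 hosts tested. Core frontal (3962 CPM) and penumbra (3871 CPM) lay between these libraries, at 1.17 (1.02 to 1.34, adjusted p = 0.257) and 1.14 (0.986 to 1.32, adjusted p = 0.486) of sham. The summed neuronal markers were 2732 CPM in core occipital and 2299 in sham, and their part in this was not tested. The adjusted p was 0.0596 with TMM scaling and 0.0919 without the most abundant circle of each gene.

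Cadps2 circRNA was lower in penumbra, at 789 CPM (76 counts; interval 621 to 987), against 1420 CPM in core occipital (118 counts; interval 1175 to 1701). The ratio was 0.555 (0.411 to 0.747; Fisher's exact test, adjusted p = 0.0300), and core occipital stood above the other libraries. It was 1 of 9 member genes, against 0.299% of the 2344 hosts. In the other 4 pairs 0 member genes passed, where the background was 1.27% of hosts for core frontal against sham, 0.485% for penumbra against sham, 1.49% for penumbra against core frontal and 1.45% for core frontal against core occipital. Against sham the ratio was 1.46 in core occipital (1.11 to 1.91, adjusted p = 0.141) and 0.808 in penumbra (0.593 to 1.10, adjusted p = 0.652). By Fisher's test, penumbra against core occipital no longer passed with TMM scaling (ratio 0.606, adjusted p = 0.108) or with no count filter (adjusted p = 0.0640). It also failed without the most abundant circle of each gene (ratio 0.497, adjusted p = 0.0535).

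With an assumed coefficient of variation of 0.2 between pools, edgeR's exact test gave both genes an adjusted p of 1. At a ratio of at least 2, 0 of the 9 member genes (0 of 8 for penumbra against sham, where Unc13c had under 10 counts) were called in any of the 6 pairs. The background was 0.616% of hosts for core frontal against sham, 0.917% for core occipital against sham, 0.283% for penumbra against sham, 0.822% for penumbra against core frontal, 0.0853% for penumbra against core occipital and 0.685% for core frontal against core occipital. At an unadjusted p under 0.05 the members counted 2, 4, 0, 2, 3 and 3 in the same order of pairs, or 22.2%, 44.4%, 0%, 22.2%, 33.3% and 33.3% of those tested. Over all hosts the shares were 14.2%, 13.3%, 11.5%, 14.3%, 7.68% and 13.6%. These shares are not on equal counts, because the test passes smaller ratios at higher counts. By count, Rims1, Rims2, Erc2 and Cadps ranked 2, 6, 24 and 67 among the hosts. The same limit holds for the genes past an adjusted p of 0.05.

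Both RIM genes stayed close to their sham level. Rims1 was 0.984 of sham in core frontal (0.907 to 1.07, adjusted p = 0.932), 1.13 in core occipital (1.03 to 1.23, adjusted p = 0.151) and 1.06 in penumbra (0.977 to 1.16, adjusted p = 0.625). Rims2 was 0.934 of sham in core frontal (0.842 to 1.04, adjusted p = 0.594), 0.994 in core occipital (0.888 to 1.11, adjusted p = 1) and 1.02 in penumbra (0.912 to 1.13, adjusted p = 0.987). By counting error alone, all 6 intervals lay within 2-fold of sham. Between the cores Rims1 was 0.874 in core frontal over core occipital (0.804 to 0.951, adjusted p = 0.0703).

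The less abundant genes had wide intervals. Unc13c had 17 frontal, 15 occipital, 4 penumbra and 5 sham counts. Its ratio to sham was 2.98 (1.06 to 10.3, adjusted p = 0.274) in core frontal and 3.85 (1.33 to 13.5, adjusted p = 0.145) in core occipital. The Poisson intervals of the 4 libraries overlapped. Erc1 was 0.581 of sham in penumbra (0.325 to 1.01, adjusted p = 0.433), Unc13b 1.81 of sham in core frontal (0.969 to 3.52, adjusted p = 0.392) and Pclo 1.42 of sham in core occipital (0.725 to 2.79, adjusted p = 0.705). Cadps was 0.844, 0.864 and 0.921 of sham in core frontal, core occipital and penumbra (adjusted p of 0.417, 0.600 and 0.826).

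**Figure D3:**
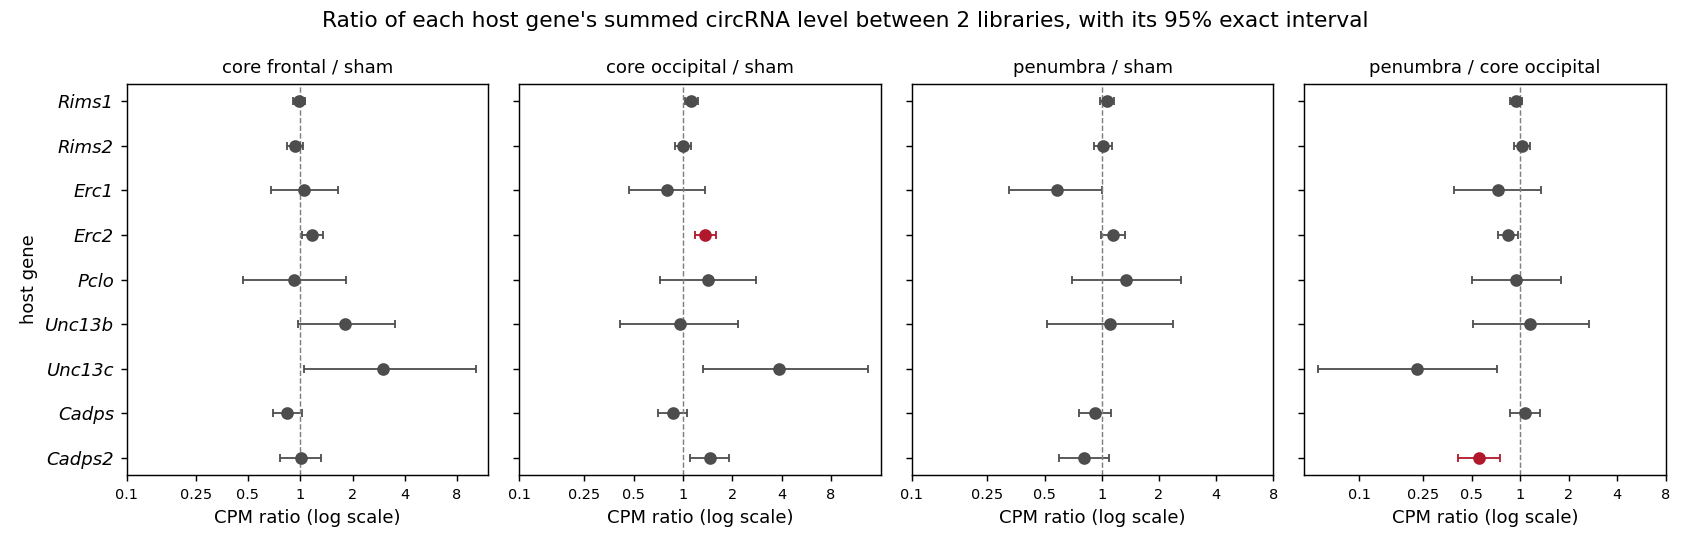
Ratio of each host gene's summed circRNA level (CPM, log scale) for core frontal, core occipital and penumbra over sham and for penumbra over core occipital. Points are ratios of single libraries and bars their 95% exact intervals, and red marks an adjusted p under 0.05. Erc2 in core occipital over sham (1.36) and Cadps2 in penumbra over core occipital (0.555) are red, and Unc13c has no point for penumbra over sham because it held under 10 counts there.

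Of single circles, 1 passed the test. Rims2 exons 20 to 22 were lower in core frontal, with 252 counts (2076 CPM), against 302 counts (2834 CPM) in sham. The ratio was 0.732 (0.617 to 0.869; Fisher's exact test, adjusted p = 0.0425 over all circles), and core frontal was the lowest of the libraries, with 2672 CPM in core occipital and 2553 in penumbra. That is 1 of 67 member circles, against 1.01% of the 4152 circles tested. In the other pairs 0 member circles passed, where the background was 0.847% of circles for core occipital against sham, 0.0807% for penumbra against sham, 1.11% for penumbra against core frontal, 0.0909% for penumbra against core occipital and 0.556% for core frontal against core occipital. The adjusted p was 0.219 with no count filter and 1 with edgeR's exact test at the assumed variation. The circle of exons 21 to 22 had ratios to sham of 0.793, 0.723 and 0.784 in core frontal, core occipital and penumbra, with adjusted p of 0.325, 0.215 and 0.432.

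At a ratio of at least 2 no member circle was called in any pair. The counts were 0 of 67 for core frontal against sham (background 0.747%), 0 of 61 for core occipital against sham (0.467%) and 0 of 64 for penumbra against sham (0.0538%). They were 0 of 71 for penumbra against core frontal (0.934%), 0 of 58 for penumbra against core occipital (0.0606%) and 0 of 68 for core frontal against core occipital (0.344%). At an unadjusted p under 0.05 there were 8, 9, 7, 6, 5 and 13 in that order of pairs, or 11.9%, 14.8%, 10.9%, 8.45%, 8.62% and 19.1% of members tested. Over all circles tested the shares were 14.2%, 12.6%, 11.3%, 12.8%, 7.03% and 11.8%. The median ratio of members was 0.996, 1.14 and 0.997 of sham in core frontal, core occipital and penumbra, beside 1.02, 0.962 and 1.01 over all circles.

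Among member circles with over 50 counts, the largest ratio to sham in each library fell on Rims2. In penumbra it was the circle that starts at exon 16 (chr15:39506966-39517871; 403 bases), with 29 frontal, 15 occipital, 35 penumbra and 16 sham counts (penumbra over sham 2.42, 1.30 to 4.68, adjusted p = 0.175). In core occipital it was the circle that starts at exon 7 and shares that donor (chr15:39452224-39517871), with 20 counts, against 13 in sham (1.97, adjusted p = 0.401). In core frontal it was exons 7 to 15 (chr15:39452224-39478710), with 35 counts, against 18 in sham (1.71, adjusted p = 0.401). None of the 3 ratios passed the test, and the shared donor at 39517871 belongs to a transcript other than the one used for numbering.

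Rims1 exons 6 to 9 (chr1:22533399-22538623; 646 bases), which lie far upstream of the exon 32 donor, had 97 frontal, 110 occipital, 115 penumbra and 86 sham counts, or 799 frontal, 1324 occipital, 1194 penumbra and 807 sham CPM. Core occipital and penumbra were the high libraries, at 1.64 (1.23 to 2.20, adjusted p = 0.0597) and 1.48 (1.11 to 1.98, adjusted p = 0.231) of sham. Its GC content was 57.4%, beside a median of 47.6% over all circles, and with the trend on GC removed the core occipital ratio was 1.37. In the transcript used, exon 8 is 1 base long and lies between introns of 207 and 327 bases. The length of 646 bases, the GC content and the ratio of 1.37 rest on that annotation, and other exon structures were not tested. Rims1 exons 29 to 31 (chr1:22373344-22397563) had 56 counts in penumbra, against 37 in sham (1.67, adjusted p = 0.317). Rims1 exons 6 to 25 (chr1:22421741-22538623) had 25 counts in core frontal, against 13 in sham (1.69, adjusted p = 0.539).

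Erc2 exons 18 to 19 had ratios of 1.41 (1.05 to 1.89, adjusted p = 0.233), 1.58 (1.16 to 2.16, adjusted p = 0.126) and 1.55 (1.15 to 2.09, adjusted p = 0.179) to sham in core frontal, core occipital and penumbra. The levels were 1030 frontal, 1155 occipital, 1131 penumbra and 732 sham CPM, with sham the low library that all 3 comparisons share. Erc2 exons 13 to 19 were at 1.39 of sham in core occipital (1.09 to 1.79, adjusted p = 0.176) and exons 15 to 16 at 1.66 (0.941 to 2.95, adjusted p = 0.463). Cadps2 exons 19 to 21 had ratios to sham of 1.61 in core frontal and 1.50 in core occipital, with adjusted p of 0.650 and 0.785. Cadps exons 26 to 28 were at 0.490 of sham in core frontal (0.300 to 0.786, adjusted p = 0.0864). The leading Rims1 circle was at 0.996, 1.15 and 0.978 of sham in core frontal, core occipital and penumbra, with adjusted p of 1, 0.345 and 0.996.

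The share that a circle held of its gene's count passed the test for no member in any pair. In Rims1 the leading circle held 45.3% (frontal), 45.6% (occipital), 41.2% (penumbra) and 44.7% (sham) of the gene's count and in Erc2 33.1% (frontal), 35.7% (occipital), 34.6% (penumbra) and 34.9% (sham). The lowest adjusted p for a change of share was 0.0769, for Rims2 exons 20 to 22 with 32.9% of the Rims2 count in core frontal, against 41.9% in sham. At an adjusted p under 0.05 the counts were 0 of 67 for core frontal against sham (background 0.361%), 0 of 61 for core occipital against sham (0.184%), 0 of 64 for penumbra against sham (0.0677%), 0 of 71 for penumbra against core frontal (0.345%), 0 of 58 for penumbra against core occipital (0%) and 0 of 68 for core frontal against core occipital (0.233%). At an unadjusted p under 0.05 Fisher's test counted 7, 7, 9, 6, 6 and 12 members in that order of pairs. Over all circles tested the shares were 12.8%, 9.58%, 9.84%, 10.9%, 6.22% and 9.43%. Members stood at 17.6% for core frontal against core occipital, the pair with the most of them.

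**Figure D4:**
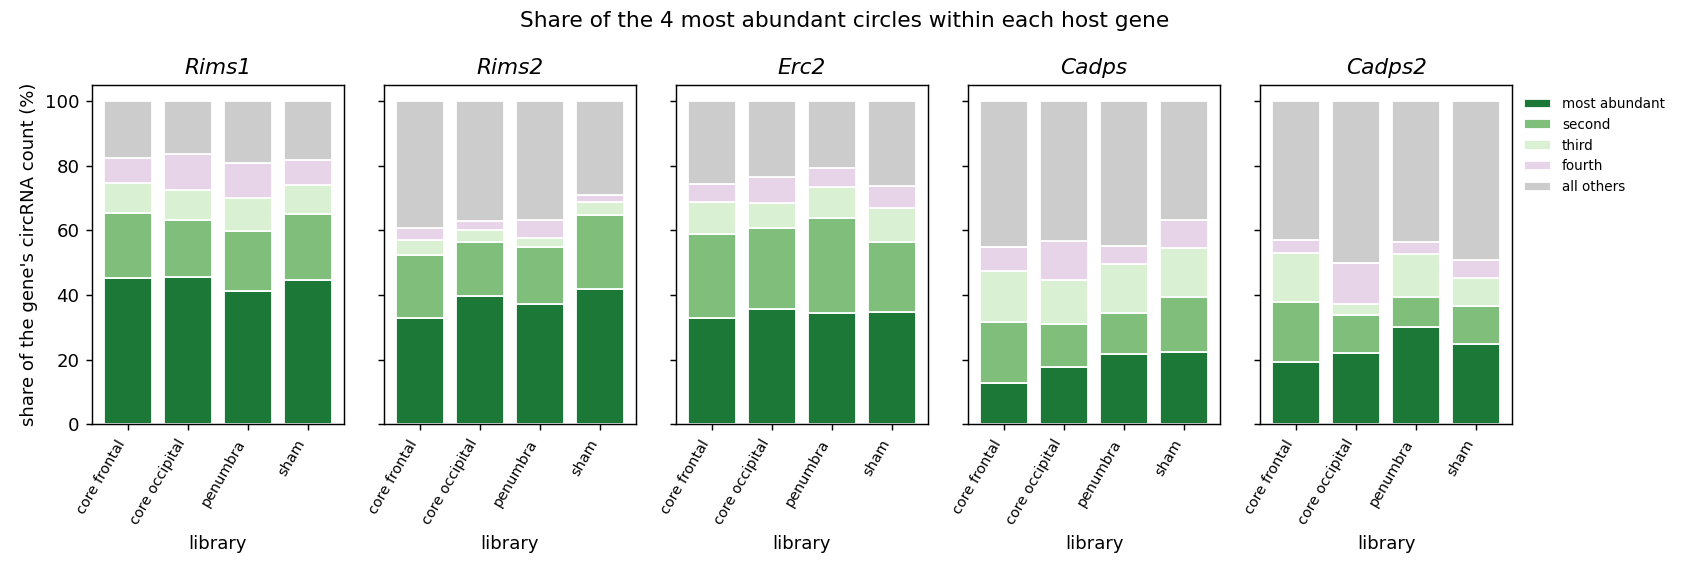
Share of each gene's circRNA count (%) held by its 4 most abundant circles and by all others, for Rims1, Rims2, Erc2, Cadps and Cadps2 in core frontal, core occipital, penumbra and sham from left to right. Each bar is a single library and sums to 100%. The leading Rims2 circle holds 32.9% in core frontal and 41.9% in sham, and the leading Rims1 circle 41.2% to 45.6% in the 4 libraries.

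Other genes of the release pathway were read from lists of active zone partners, fusion machinery and calcium sensors, presynaptic calcium channel subunits and vesicle proteins. No gene of these lists passed at an adjusted p under 0.05 in any of the 6 pairs, and the lowest was 0.0842, for a calcium channel subunit in core frontal over sham. Circles were found for 8 of 18 active zone partners, led by Rimbp2, a RIM-binding protein, with 19 frontal, 29 occipital, 31 penumbra and 35 sham counts, and Cask, a presynaptic scaffold kinase, with 18 frontal, 11 occipital, 11 penumbra and 17 sham counts. Bsn, which encodes bassoon, the scaffold related to piccolo, had 2 frontal, 0 occipital, 2 penumbra and 0 sham counts. Of the fusion machinery 10 of 18 genes had circles, led by Stxbp5 with 149 frontal, 128 occipital, 158 penumbra and 160 sham counts and Stxbp5l with 146 frontal, 84 occipital, 120 penumbra and 111 sham counts, both tomosyns that bind fusion proteins.

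Calcium channel subunits had circles for 7 of 10 genes, led by Cacna2d3 with 243 frontal, 168 occipital, 174 penumbra and 156 sham counts and Cacna2d1 with 147 frontal, 104 occipital, 121 penumbra and 111 sham counts. Both encode auxiliary subunits. The median ratio of this list to sham was 1.34, 1.38 and 1.34 in core frontal, core occipital and penumbra over 6, 5 and 6 tested genes, beside 1.02, 0.997 and 1.02 over all hosts. Of the vesicle proteins 6 of 10 had circles, led by Sv2b with 100 frontal, 75 occipital, 82 penumbra and 84 sham counts and Syn1 with 23 frontal, 12 occipital, 13 penumbra and 12 sham counts. In core frontal, core occipital and penumbra the median ratios to sham were 0.958, 1.25 and 0.980 for the active zone partners, over 4, 4 and 3 tested genes. They were 1.07, 1.21 and 1.33 for the fusion machinery, over 6 tested genes each. For the vesicle proteins they were 1.68, 1.28 and 1.20, over only 3 tested genes each. Slc17a7, Slc32a1, Vamp2, Syp and Rab3a, which encode abundant synaptic vesicle proteins, were at 0 in all 4 libraries.

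Over the 4 libraries, the hosts whose level was most like that of the 9 genes together were Sipa1l1, Rabgap1l and Sv2b. Their centred log2 CPM differed from that of the member sum by at most 0.04 in any library, among 421 hosts with 200 or more counts. Sv2b, a synaptic vesicle protein gene, was at 824 frontal, 903 occipital, 851 penumbra and 788 sham CPM. The likeness covers 4 libraries and the sum it is set against moved little.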

How the data were processed

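RNA sequencing of total RNA after ribosomal RNA removal was read from 4 libraries, placed in groups by their tissue or treatment label; the labels name both a TruSeq and a directional NEBNext kit. The deposited table holds whole-number circRNA counts per junction, not normalized. The deposited FPKM table, made by the authors, equals count over genomic span and library total (largest relative difference 5.28e-15), so counts were used. TopHat2 2.0.10, Bowtie and mm9 are listed, per the submitters' processing notes; the circRNA caller, its annotation and what a read had to span: not given in the sources used here. The coordinates match GRCm38: 89.1% of starts and 89.7% of ends lay on GENCODE M21 exon boundaries, and 0.192% of starts when moved by 1 base. A span column of the deposited count table was not used as a measurement. The table gives no strand, so the strand is the host gene's, and overlapping genes cannot be told apart. Exons are numbered along the protein-coding transcript with the most coding exons. That of Rims1 holds a 1-base exon 8 and introns of 1 or 2 bases after exons 17, 19 and 20. The Rims1 exon numbers and spliced lengths rest on this annotation. For every gene, spliced lengths, exon counts and circle sequences take all annotated exons between the 2 ends. Counts cover the junction only, so skipped exons or kept introns inside a circle were not observed.

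For each of 6 pairs of libraries, a two-sided Fisher's exact test (scipy 1.17.1) set each circle, or each host gene's sum, against the rest of the library's circRNA count, over the whole table with 10 or more counts in the pair, with Benjamini-Hochberg adjustment. A call needs an adjusted p under 0.05 and a ratio of at least 2; calls at adjusted p alone are given too. Shares compared a circle with the other circles of its gene. Intervals and the limit of 3 counts cover counting error only; without molecular identifiers, PCR copies of a molecule are counted again. Depth was 83090 to 121393 circRNA counts. The test was run on simulated Poisson counts for core frontal against sham only. These hold no variation between pools, so they cannot show how the test behaves where pools vary. Alternatives were TMM (edgeR 4.0.16) and DESeq2 1.42.0 size factors, a total over circles with both ends annotated, other count filters, edgeR's exact test with the coefficient of variation set to 0.2, GC trend removal, both-ends circles, genes without their leading circle and both cores summed.

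Named circles were the 2 most abundant of each gene, those with an adjusted p under 0.05 and the 5 largest ratios to sham among circles over 50 counts; others were named after their values were seen. The members and gene lists were chosen with earlier results of these data known.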

Additional observations from a re-analysis of the deposited data

How the results depend on the processing

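No paired analysis was possible because each group holds 1 library, and leaving out a replicate is likewise not possible. Splice-site dinucleotides and reverse-complement matches in the flanking introns were not run, because no genome sequence was used here. Of 620 alternative values, 579 kept their direction and their side of the threshold or stayed within 1.5 times the count. Values that failed the test in both settings are among those kept, so this number says little about the results that passed. Erc2, Cadps2 and the leading Rims2 circle, which passed, each failed under some alternatives. TMM scaling moved medians by over 0.1 on the log2 scale in the 2 pairs with a called gene. In core occipital over sham they were -0.17 for circles and -0.12 for hosts, against -0.06 and -0.0037 without it, and in penumbra over core occipital 0.14 and 0.12, against 0.01 and -0.0021.

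Counts of members at an adjusted p under 0.05 moved as follows. For core frontal over sham, the count of circles was 0 with no filter, 2 with a minimum of 30 counts (1 of them at a ratio of at least 2) and 0 with edgeR at the assumed variation, against 1; host genes were 1 with the cores summed and shares 1 with 30 counts, against 0. For core occipital over sham, circles were 1 with 30 counts, against 0, and host genes 0 with TMM, edgeR or without the leading circle, against 1. For penumbra over core occipital, host genes were 0 with TMM, no filter, edgeR or without the leading circle, against 1. For core frontal over core occipital, circles were 1 with the both-ends total and 1 with 30 counts, and host genes 1 with 30 counts, against 0.

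Ratios close to 1 changed side: Rims1 core frontal over sham to 1.04 with both cores summed, Rims2 core frontal and core occipital over sham to 1.08 and 1.03 without the leading circle, Rims2 penumbra over sham to 0.990 with both-ends circles, Cadps2 core frontal over sham to 0.987 with TMM, and the leading Rims1 circle in core frontal over sham to 1.00 with DESeq2 size factors. None of these passed the test. Where the number of features tested differs, fewer or more tests enter the adjustment; otherwise the cause was not tested. Depth limits Pclo, Unc13b and Unc13c, whose sums reach at most 33 counts a library.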
